A study of Mus musculus with 3 samples.

Results

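Angiogenic factors and endothelial-linked genes were examined in CD133+ cells sorted from mouse bone marrow, which the study calls endothelial-like cells (ELCs). A set of 10 genes was chosen by name out of the 27998 genes in the count tables. They were the secreted factors *Vegfa*, *Vegfb*, *Hgf*, *Tgfb1* and *Egfl7*, the VEGF receptors *Flt1* and *Kdr*, the adhesion molecules *Pecam1* and *Cdh5*, and *Hif1a*, a transcription factor of the response to low oxygen. The question was which members of an endothelial or angiogenic programme could be measured in these cells, and whether their levels differed between cell states and between mice of different ages.

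VEGF-A and VEGF-B are secreted ligands of the VEGF receptors, and VEGF-A drives the growth of new vessels through the receptor KDR. FLT1 binds both ligands and can act as a decoy for VEGF-A, while VE-cadherin (*Cdh5*) and CD31 (*Pecam1*) hold endothelial cells together at their junctions. Bone marrow haematopoietic cells make several of the same molecules, so a single such gene does not mark an endothelial cell.

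The data were unique molecular identifier (UMI) counts from 3 single-cell libraries of C57BL/6 mice, prepared with a 3′ droplet kit. The young library was labelled as 3 months old, the old library as 27 months old and the control library as 3 months old. The control label names no treatment, and no genotype other than the strain was given for any group. The ages disagree between sources, since the design text of the series gives the old mice as 18.5 months old. By the study's methods, bone marrow cells of 3 mice were pooled for a library, so each group was 1 library and no difference between groups could be tested against a spread between animals. Age, mice and library preparation therefore cannot be told apart, and the control against the young library was the only comparison of 2 libraries with the same labelled age.

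After cell filters, 9780 control, 7378 young and 9681 old cells were kept, with 95980225, 74708327 and 119588365 UMIs. Levels are given as UMIs per 1000000 UMIs of the library or cell group (CPM). Every interval is an exact 95% interval that covers counting error only. The gene of the sorted antigen, *Prom1* (CD133), was at 52.6, 43.8 and 45.7 CPM in the control, young and old libraries. Cells were divided by 2 measures of neutrophil maturation. Cells with 5 or more *Retnlg* and *Mmp8* UMIs together per 10000 UMIs formed a band of their own. Both are genes of maturing neutrophils. The others were split by myeloperoxidase (*Mpo*), a granule gene of promyelocytes, into Mpo high (40 or more per 10000), Mpo mid (10 to 40) and Mpo low (under 10). Cells with 3 or more markers of another blood cell type were set aside. These were 0.859% of control, 9.68% of young and 0.94% of old cells, so the young library stood apart, and 427 of its 714 set-aside cells were monocyte-like. The Retnlg+Mmp8 band held 13.3% of control, 35.7% of young and 61.6% of old cells. Each pair of libraries shared 120 to 161 cell barcodes. Summed over their fixed markers, monocyte genes were at 23.1, 306 and 39.2 CPM in control, young and old (8 genes). Dendritic cell genes were at 26.6, 298 and 15.2 CPM (7 genes, 3 of them at 0 in old). B progenitor genes were at 14.7, 125 and 5.98 CPM (7 genes). Without the set-aside cells, monocyte genes were at 8.94, 45.2 and 17.3 CPM and dendritic cell genes at 12.3, 49.2 and 10.2 CPM. B progenitor genes were then at 9.71, 29.2 and 5.18 CPM. Setting cells aside thus did not remove all of this marker signal.

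On GRCm38 the ligand genes lie at chr17:46016993-46032369 (*Vegfa*, minus strand), chr19:6982473-6987651 (*Vegfb*, minus), chr5:16553495-16620152 (*Hgf*, plus), chr7:25687002-25705077 (*Tgfb1*, plus) and chr2:26580014-26593120 (*Egfl7*, plus). The receptors lie at chr5:147561604-147726011 (*Flt1*, minus) and chr5:75932827-75978458 (*Kdr*, minus). The junction genes lie at chr11:106654217-106750628 (*Pecam1*, minus) and chr8:104101625-104144511 (*Cdh5*, plus), and *Hif1a* lies at chr12:73901375-73947530 (plus).

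Sequences are shown for 3 features as context, and no value reported here was measured on them. *Egfl7* carries the microRNA miR-126, a known regulator of endothelial VEGF signalling, and *Flt1* and *Vegfb* were the members that differed most between the Mpo high and Mpo low bands at the band limits used. The mature miRNA lies at chr2:26591402-26591423 on the plus strand of GRCm38.p6, in an intron of 8 of the 9 annotated *Egfl7* transcripts that span it and in an exon of 1. The 3′ libraries do not measure the miRNA itself. Its seed, bases 2 to 8, is in capitals:
mmu-miR-126a-3p: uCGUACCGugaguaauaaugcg
The RefSeq promoter windows (GRCm38.p6) are the 250 bases upstream of the annotated start, read on the minus strand of both genes. The *Flt1* window is chr5:147726012-147726261 and the *Vegfb* window is chr19:6987652-6987901. Capitals mark the GC box GGGCGG, searched on both strands, with adjoining matches merged:
*Flt1*: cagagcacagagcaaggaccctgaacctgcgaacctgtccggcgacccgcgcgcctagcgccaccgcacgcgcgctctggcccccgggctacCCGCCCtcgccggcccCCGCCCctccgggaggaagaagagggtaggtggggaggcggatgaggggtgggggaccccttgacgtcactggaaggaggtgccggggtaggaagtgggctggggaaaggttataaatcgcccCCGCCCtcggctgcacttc
*Vegfb*: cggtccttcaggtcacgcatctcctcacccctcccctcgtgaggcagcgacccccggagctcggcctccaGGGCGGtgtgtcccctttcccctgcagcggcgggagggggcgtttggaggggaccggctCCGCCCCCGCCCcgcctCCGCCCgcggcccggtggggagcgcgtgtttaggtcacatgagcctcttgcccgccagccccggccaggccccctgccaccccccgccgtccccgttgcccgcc
The windows held 3 and 4 GC boxes and a GC content of 70.4% and 76.4%. The HIF core ACGTG and the ETS core CCGGAA were not found in either window on either strand. Among 32851 promoter windows of the same length, 32.7% held the GC box, 16.6% the HIF core and 12% the ETS core.

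Of the 10 genes, 3 reached 10 CPM in at least 1 library (*Vegfa*, *Tgfb1* and *Hif1a*), 5 reached 1 CPM but not 10 CPM in at least 1 library and 2, *Cdh5* and *Kdr*, stayed under 1 CPM in every library. *Tgfb1*, a cytokine with roles in vessel wall formation and in immune control, was counted at 84.1 CPM in control (interval 82.3 to 86.0), 101 CPM in young (99.1 to 104) and 83.7 CPM in old (82.1 to 85.4). *Hif1a* was at 17 CPM in control (16.2 to 17.8), 15.3 CPM in young (14.5 to 16.2) and 13.6 CPM in old (13 to 14.3), so the order of the groups was not that of *Tgfb1*. *Vegfa* was at 10.7 CPM in control (10.1 to 11.4), 12.5 CPM in young (11.7 to 13.3) and 5.80 CPM in old (5.38 to 6.25). The old library was the lowest of the 3 for *Vegfa*, with an interval that overlapped neither 3-month library.

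Detection in single cells was sparse. *Vegfa* was found in 962 control, 836 young and 650 old cells, of which 901, 753 and 606 had 1 UMI. *Tgfb1* was found in 4887, 4105 and 5510 cells, with at most 11 UMIs in a cell.

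*Egfl7*, which encodes a secreted protein of the vessel wall, was at 5.96 CPM in control, 6.96 CPM in young and 5.91 CPM in old, from 572, 520 and 707 UMIs. *Flt1* was counted at 1.18 CPM in control (0.97 to 1.42), 1.27 CPM in young (1.03 to 1.55) and 1.05 CPM in old (0.87 to 1.25), intervals that overlap. *Vegfb* was at 1.04 CPM in control (0.848 to 1.27) and 1.53 CPM in young (1.26 to 1.83), but at 0.351 CPM in old (0.253 to 0.475). *Hgf*, the ligand of the receptor MET, was at 0.927, 1.53 and 1.05 CPM from 89, 114 and 126 UMIs, with the young library the highest. The 3′ counts do not separate isoforms, so soluble and membrane *Flt1* and the splice forms of *Vegfa* are summed.

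**Figure D1:**
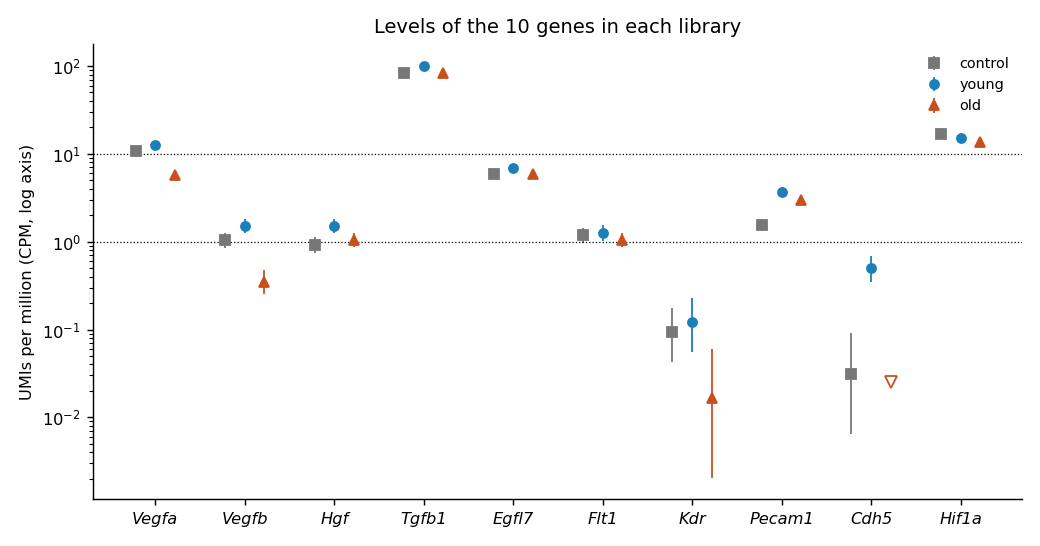
Level of each of the 10 genes in the control, young and old libraries, in CPM on a log axis, with exact 95% Poisson intervals; the open triangle is the level that 0 UMIs allow (3 counts) for *Cdh5* in old, and dotted lines are at 1 and 10 CPM. *Vegfa* and *Vegfb* were lowest in old, at 5.80 and 0.351 CPM, while *Cdh5* and *Kdr* lay under the lower line in every library.

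The receptor and junction genes that define endothelium were near the limit of detection. *Kdr*, the main signalling receptor for VEGF-A, gave 9 UMIs in 9 control cells, 9 UMIs in 6 young cells and 2 UMIs in 2 old cells. That is 0.0938 CPM in control (0.0429 to 0.178), 0.12 CPM in young (0.0551 to 0.229) and 0.0167 CPM in old (0.00203 to 0.0604). No cell carried both *Flt1* and *Kdr* in any library. *Flt1* was found in 1.13% of control, 1.23% of young and 1.23% of old cells. With so few cells of either gene, a count of 0 could not show whether both are expressed together.

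*Cdh5* gave 3 UMIs in control, 37 in young and 0 in old. The young level was 0.495 CPM (0.349 to 0.683) and the control level 0.0313 CPM (0.00645 to 0.0913), while 0 of 119588365 UMIs in old allows up to 0.0251 CPM by 3 counts. Set against that limit, *Cdh5* was at least 19.7-fold higher in the young than in the old library. The exact conditional interval is wider, with a log2 ratio of old to young of at most −3.93, or at most −3.25 without the set-aside cells. The young UMIs came from 27 cells, of which 12 were set aside as other blood types, 7 lay in the Mpo low band and 8 in the Retnlg+Mmp8 band. Among set-aside young cells, the 60 dendritic-like cells held 10 of the UMIs, a level of 23.5 CPM (11.3 to 43.3), and the 427 monocyte-like cells held 4, a level of 1.03 CPM. In control, 2 of the 3 UMIs were in 1 dendritic-like cell. Of the 27 young cells, 11 also had a *Pecam1* UMI and 1 had a UMI of another endothelial gene. Without the set-aside cells, young kept 22 UMIs, or 0.323 CPM, control kept 1 UMI, or 0.0105 CPM, and old had 0. With or without the set-aside cells, the young library also had the highest monocyte, dendritic and B progenitor marker sums. The part of such cell types in the difference was not tested beyond these counts.

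*Pecam1*, which endothelial cells share with platelets, monocytes and other leukocytes, was at 1.56 CPM in control (1.32 to 1.83), 3.69 CPM in young (3.27 to 4.16) and 2.99 CPM in old (2.68 to 3.31). Set-aside cells held 12.7% of its UMIs in control, 55.1% in young and 2.24% in old. In young it reached 41.6 CPM in the 108 B progenitor-like cells (30.0 to 56.2) and 32.9 CPM in the dendritic-like cells (18.0 to 55.3). Without the set-aside cells the levels were 1.37, 1.82 and 2.94 CPM, and the old library became the highest. The ratio of old to young turned from −0.31 on the log2 scale (−0.54 to −0.08) to 0.69 (0.39 to 1) when those cells were left out. With 1 UMI per marker enough to set cells aside, the ratio was 0.95. Against control it was 0.93 with them and 1.10 without them, so that direction did not depend on them.

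Other genes that define endothelium were checked as a list of 14 (tight junction, angiopoietin receptor and transcription factor genes, among others). None reached 10 CPM, and 13 of the 14 stayed under 1 CPM in every library. Their summed UMIs were 198 in control, 189 in young and 231 in old, or 2.06, 2.53 and 1.93 CPM. *Aplnr*, the apelin receptor, and *Tie1*, an endothelial receptor tyrosine kinase, held most of these UMIs. The gene at 0 in all 3 libraries, named after its values were seen, was *Sox17*, a transcription factor of arterial endothelium. *Nos3*, endothelial nitric oxide synthase, gave 3 UMIs in control, 4 in young and 45 in old, or 0.376 CPM in old (0.274 to 0.504). *Mmrn2*, an extracellular matrix gene of endothelium, gave 17, 7 and 50 UMIs.

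Cells that carried several of these genes at once were then counted over 17 genes, the 14 plus *Cdh5*, *Kdr* and *Flt1*. No kept cell had UMIs of 3 or more of them in any library. A count of 0 allows a share of up to 0.0307% of 9780 control cells, 0.0407% of 7378 young cells and 0.031% of 9681 old cells by 3 counts. This limits cells with UMIs of 3 such genes, not cells that express them, since each gene is sparsely detected. Cells with exactly 2 of the genes numbered 3 in control, 3 in young and 7 in old.

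**Figure D2:**
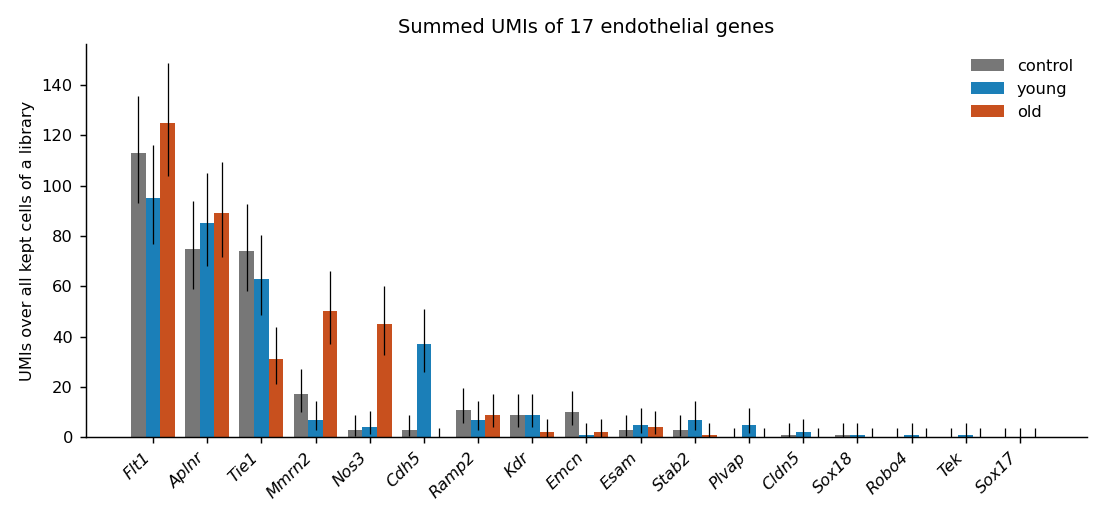
UMIs of 17 endothelial genes summed over all kept cells of each library, with exact 95% Poisson intervals; bars are the control, young and old libraries, whose total UMIs differ. *Flt1* led the list with 113, 95 and 125 UMIs, and *Sox17* had none.

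Levels were next compared between bands within each library. Between Mpo high and Mpo low, 4 of the 10 genes were at 10 CPM or more in one band in every library (*Egfl7*, *Vegfa*, *Tgfb1* and *Hif1a*). All 4 were at least 1.5 times higher in the Mpo high band in every library. *Tgfb1* and *Hif1a* reached 10 CPM in both bands. *Egfl7* in every library, and *Vegfa* in control and old, reached it in Mpo high only, so no other direction could be called for them. The count of 4 was thus partly set by the filter. The background was high, since 41% of the 5654 genes compared in all 3 libraries passed the same limit in the same direction, so this direction was common among all genes. The median log2 ratio of all genes tested was 0.58 in control, 0.57 in young and 0.51 in old.

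*Flt1* differed more than 10-fold between these bands in every library. In the Mpo high band it was at 4.23 CPM in control (3.32 to 5.31), 3.48 CPM in young (2.54 to 4.65) and 4.89 CPM in old (3.72 to 6.30). In the Mpo low band it was at 0.315, 0.259 and 0.367 CPM, from 18, 7 and 10 UMIs. The fold between these bands was 13.4 in control (7.94 to 23.9), 13.4 in young (6.00 to 35.3) and 13.3 in old (6.74 to 29.2). These near-equal ratios spread under other settings, at low counts. After thinning to 3000 UMIs the log2 ratios were 4.75, 2.89 and 3.20 in control, young and old, and with the band limits halved the old ratio was 2.85. Thinned Mpo low cells with a *Flt1* UMI numbered 2, 3 and 3. Among these ratios, only that of thinned control lay outside the counting interval given above. Of 9633 genes that reached 1 CPM in one of both bands in every library, 3.96% were at least 5 times higher in the Mpo high band in all 3 libraries. That limit was chosen after the values were seen, and *Flt1* was the member that passed it. Of both bands, *Flt1* reached 1 CPM only in Mpo high, so it could be called in that direction only. *Elane*, the neutrophil elastase gene of the same cells, differed 11.7-fold, 14.9-fold and 10.4-fold between these bands.

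*Egfl7* was at 12.3 CPM in the Mpo high band of control, 11.3 CPM in young and 15.2 CPM in old. It declined to 8.87, 8.49 and 9.68 CPM in the Mpo mid band and to 3.85, 5.07 and 4.63 CPM in the Mpo low band. The fold between Mpo high and Mpo low was 3.19 (2.63 to 3.87), 2.22 (1.75 to 2.83) and 3.27 (2.59 to 4.14). In the Retnlg+Mmp8 band it was at 3.31, 5.57 and 4.19 CPM, close to the Mpo low band. Of 111 control, 91 young and 119 old cells with a *Flt1* UMI, 14, 9 and 14 also had an *Egfl7* UMI. Over all kept cells, *Egfl7* was found in 5.38%, 6.10% and 6.57%. The part of depth and band in this overlap was not tested.

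The secreted factors ranged widely. *Tgfb1* was 1.86-fold higher in Mpo high than in Mpo low cells of control (1.77 to 1.96), 1.86-fold in young (1.74 to 1.99) and 1.80-fold in old (1.69 to 1.92). *Vegfa* was 1.66-fold, 1.90-fold and 2.49-fold higher, with intervals of 1.43 to 1.92, 1.60 to 2.26 and 1.96 to 3.18. *Vegfb* differed more, 4.67-fold in control (2.97 to 7.41), 4.06-fold in young (2.24 to 7.61) and 25.9-fold in old (6.4 to 227), where the Mpo low band held only 2 UMIs. With the band limits halved, the log2 ratio of *Vegfb* went from 2.22 to 1.46 in control and from 2.02 to 0.70 in young. For *Hif1a* the fold was 1.68, 1.97 and 1.72, with an interval of 1.46 to 2.04 in old. After a single random thinning the log2 ratio in old was 0.22, short of the limit. That value rested on 28 Mpo high and 66 Mpo low cells with a *Hif1a* UMI. A single draw at such counts cannot separate an effect of depth from the scatter of thinning. *Tgfb1* was at 131, 133 and 142 CPM in Mpo high cells of control, young and old, and at 53.0, 78.8 and 69.0 CPM in the Retnlg+Mmp8 band. *Hif1a* was at 24.8, 21.4 and 20.5 CPM in Mpo high cells, and its other bands lay between 10.9 and 17 CPM in all 3 libraries. Of the 4 bands, Mpo high held the highest level of both genes in each library. The set-aside cells, outside the bands, were at 153, 237 and 156 CPM for *Tgfb1* and at 39.3, 25.7 and 29.7 CPM for *Hif1a*. For *Hif1a* their intervals overlapped those of Mpo high cells in every library.

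*Pecam1* and *Hgf* showed no such gradient. *Pecam1* was at 1.71, 2.39 and 3.39 CPM in Mpo high cells of control, young and old, and at 1.31, 1.81 and 3.09 CPM in Mpo low cells. *Hgf* was at 0.857, 1.62 and 1.16 CPM in Mpo high cells and at 0.839, 1.48 and 0.955 CPM in Mpo low cells. These genes gave folds between 1.02 and 1.32 whose intervals all included 1, so no difference between these bands was detectable at their depth.

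**Figure D3:**
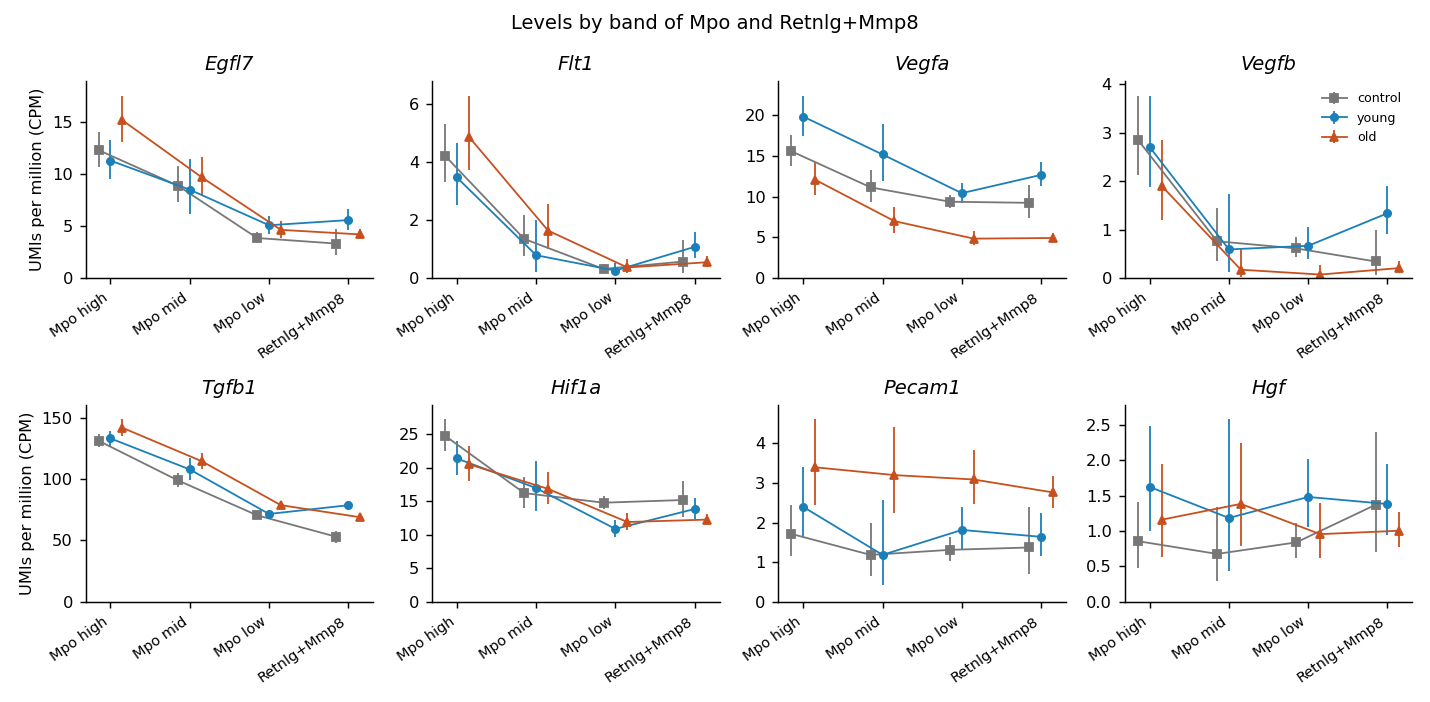
Level in CPM of 8 genes in the Mpo high, Mpo mid, Mpo low and Retnlg+Mmp8 bands, as points with exact 95% Poisson intervals for the control, young and old libraries. *Flt1* was at 3.48 to 4.89 CPM in the first band and at 0.259 to 0.367 CPM in the third, and *Vegfa* in old lay under both other libraries in every band.

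Old cells were then compared with both 3-month libraries. Genes were compared where one of the libraries of a pair reached 10 CPM, which left 3 members, *Vegfa*, *Tgfb1* and *Hif1a*. Of these, *Vegfa* differed by 1.5 times or more in the same direction against both, and it was lower in old. It reached 10 CPM in control and young only, so it could be called lower in old but not higher. No member was higher by that limit. Of 5401 genes tested in both comparisons, 5.09% were lower in old and 3.09% were higher, against which 1 of the 3 members compared was lower. A count of 1 gives no more than that gene's own values. *Vegfa* was 2.15-fold lower in old than in young, a log2 ratio of −1.10 (−1.25 to −0.96), and 1.85-fold lower than in control, a log2 ratio of −0.88 (−1.03 to −0.74). Control against young gave −0.22 (−0.35 to −0.09). The median log2 ratio was −0.28 against young and −0.32 against control over the 3 members, beside −0.15 and −0.08 over all genes compared. Both comparisons share the old library.

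The bands hold different shares of the cells in each library, so *Vegfa* was also compared within bands. It was 12.1 CPM in Mpo high cells of old against 15.6 CPM in control and 19.8 CPM in young. In Mpo low cells it was 4.85 CPM in old (4.06 to 5.75), 9.39 CPM in control (8.61 to 10.2) and 10.4 CPM in young (9.26 to 11.7). In the Retnlg+Mmp8 band it was 4.93, 9.25 and 12.7 CPM in old, control and young. Old was thus lower than both libraries in all 4 bands, but in Mpo high cells the ratio to control was 1.29-fold, short of the limit and about the size of the 1.27-fold ratio between the control and young libraries there. With the 4 bands weighted equally, the log2 ratio was −1.01 against young and −0.65 against control. At a minimum of 10 CPM *Vegfa* could be compared against both libraries in the Mpo high and Mpo mid bands, since the control level was under 10 CPM in the other bands. It passed 1.5 times against both in Mpo mid cells, where 2.71% of 5563 genes were lower in old, and not in Mpo high cells, where 1.6% of 6000 were. In Mpo mid cells *Vegfa* reached 10 CPM in control and young but not in old, so it could be called lower only. Cells within a band were not matched between libraries. *Mpo* itself was at 7051, 8019 and 9336 CPM in Mpo high cells of old, control and young, the order of *Vegfa* there. In the Retnlg+Mmp8 band it was at 724, 751 and 1641 CPM, again in that order. Mpo mid cells had 2202, 2169 and 2149 CPM and Mpo low cells 369, 394 and 357 CPM, in other orders. The part of such differences in the *Vegfa* ratios was not tested.

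The share of Mpo low cells with a *Vegfa* UMI gave the same order. After each cell was thinned to 3000 UMIs, 2.91% of control (2.49 to 3.37), 3.07% of young (2.44 to 3.81) and 1.52% of old cells (1.04 to 2.15) had one. Before thinning the shares were 8.60%, 9.90% and 6.23%, at median depths of 9416, 10484.5 and 13490 UMIs. In the set-aside cells, of other blood types, the thinned share was 1.19%, 0.28% and 0%, at median depths of 7214, 7965 and 9282 UMIs. The Mpo low shares of all 3 libraries lay within the intervals of the set-aside cells in control (0.0301 to 6.46) and in old (0 to 3.97). Those groups held 84 and 91 cells, too few for their intervals to separate the libraries. All 3 Mpo low shares lay above the interval of the set-aside cells in young (0.0339 to 1.01).

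*Vegfb* had a larger ratio than *Vegfa* at a lower level. It was 4.34-fold lower in old than in young (log2 −2.12, −2.67 to −1.60) and 2.97-fold lower than in control (log2 −1.57, −2.12 to −1.04). At a minimum of 1 CPM, chosen after the values were seen, it joined *Vegfa* past the limit, where 11% of 9751 genes were lower in old. *Vegfb* reached 1 CPM in control and young only, so at that minimum it could not have been called higher. The Mpo high band gave log2 ratios of −0.51 (−1.33 to 0.29) against young and −0.58 (−1.36 to 0.15) against control, both including 0. In Mpo low cells *Vegfb* gave 2 UMIs in old, 35 in control and 18 in young, or 0.0735, 0.612 and 0.666 CPM, a log2 ratio of −3.06 against control (−6.16 to −1.10). In Mpo mid cells the log2 ratio was −2.14 against control (−5.39 to 0.14) and −1.78 against young (−5.36 to 1.35), both including 0. In the Retnlg+Mmp8 band it was −0.73 against control (−2.57 to 1.71) and −2.69 against young (−3.72 to −1.74). Set-aside cells held 23.7% of the *Vegfb* UMIs in young. Without set-aside cells the log2 ratio was −1.88 against young and −1.56 against control. Weighting the bands equally brought the ratios to −1.17 against young and −0.96 against control.

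*Tgfb1* and *Hif1a*, the other members compared at 10 CPM, were closer between ages than *Vegfa*. *Tgfb1* differed by −0.28 on the log2 scale against young (−0.32 to −0.23) and by −0.01 against control (−0.05 to 0.04). In young, set-aside cells held 20.4% of its UMIs at 237 CPM, and without those cells the ratio to young was −0.09. Within the Mpo high, Mpo mid and Mpo low bands its ratios were 0.09 to 0.21 against both libraries, and in the Retnlg+Mmp8 band −0.19 against young and 0.38 against control. *Hif1a* differed by −0.17 against young and −0.32 against control, while control against young differed by 0.15. *Egfl7* and *Flt1* over all kept cells differed from both libraries by less than the limit, and in Mpo high cells their old levels of 15.2 and 4.89 CPM were the highest of the 3. *Pecam1*, under 10 CPM, was not closer. Without set-aside cells its log2 ratio was 0.69 against young and 1.10 against control. It was higher in old than in control in every band, with log2 ratios of 0.99 to 1.43.

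**Figure D4:**
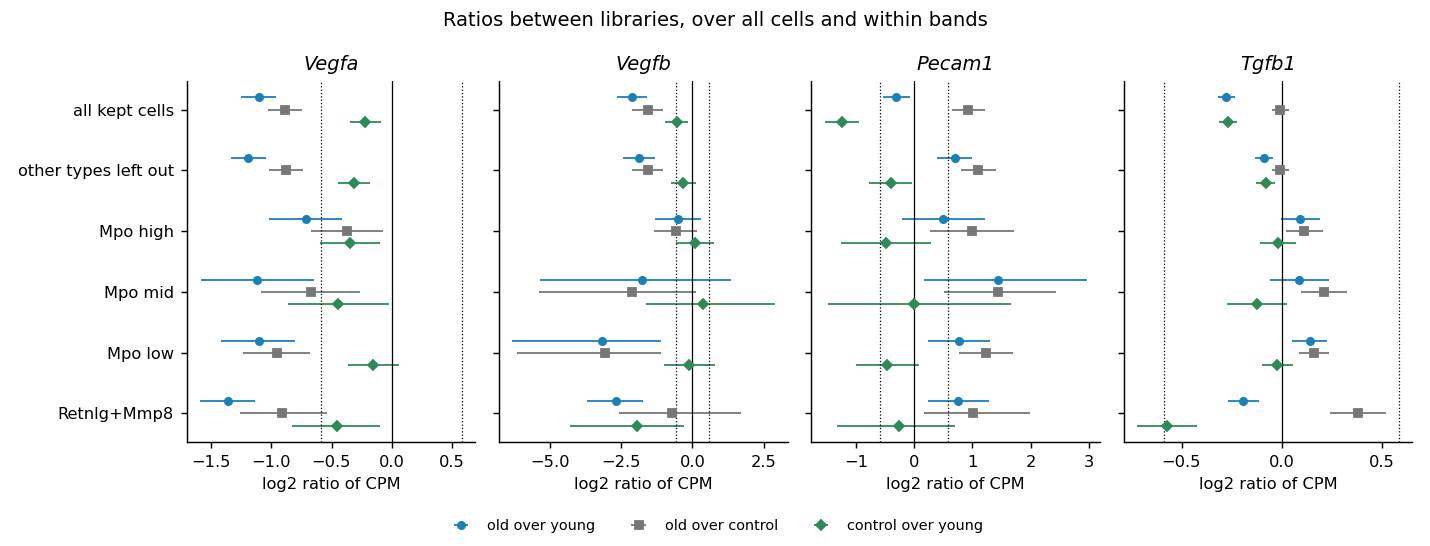
Log2 ratios of CPM for *Vegfa*, *Vegfb*, *Pecam1* and *Tgfb1* between libraries, over all kept cells, without the set-aside cells and within each band, with exact 95% conditional intervals; dotted lines are at 1.5 times. *Vegfa* lay below 0 in old against both libraries in every band, and *Pecam1* in old against young changed sign from −0.31 to 0.69 without the set-aside cells.

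Partners of these genes in the same pathways were described from fixed lists, chosen with earlier results of these data known. Counts of listed genes past the limit therefore cannot measure enrichment over the share of all genes. In the VEGF receptor list of 8 genes, the co-receptor *Nrp1* was at 4.06, 8.21 and 3.53 CPM in control, young and old, *Nrp2* at 0.385, 0.348 and 1.41 CPM, and 6 genes stayed under 1 CPM throughout. Among the latter was *Flt4*, a receptor of lymphatic vessels, with 2 UMIs in control and none in young or old. Among 26 secreted angiogenic factors, 5 could be compared and 3 were higher in old against both libraries, against 3.09% of all genes, namely *Prok2*, *Mmp9* and *Lgals3*. *Prok2*, a secreted prokineticin, was at 3.34, 1.87 and 36.7 CPM. As it reached 10 CPM in old only, it could be called higher in old but not lower. *Prok2* lay mainly in the Retnlg+Mmp8 band, at 24.2, 5.09 and 60.8 CPM. That band was largest in old, and the level within it was also highest in old. *Mmp9*, a matrix protease of neutrophil granules, was at 54.9, 70.1 and 142 CPM, but with bands weighted equally its log2 ratio was 0.39 against young and −0.29 against control. *Lgals3*, galectin 3, was at 389, 459 and 826 CPM, and its equal-band ratios were 0.98 against young and 0.53 against control, the latter short of the limit. The median log2 ratio of the 5 genes was 0.85 against young and 1.09 against control.

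Of 11 anti-angiogenic genes, 1 could be compared, *Timp2*, a protease inhibitor at 6.22, 8.12 and 20.5 CPM. It was called higher in old, beside 3.09% of all genes, with equal-band ratios of 0.97 and 0.40. Since *Timp2* reached 10 CPM in old only, no other direction could be called. *Thbs1*, thrombospondin 1, was at 5.51 CPM in control (529 UMIs), 3.71 CPM in young (277 UMIs) and 0.0669 CPM in old (8 UMIs). It was concentrated in the Retnlg+Mmp8 band, at 44.0 CPM in control, 8.37 CPM in young and 0.0886 CPM in old. Its old level was therefore the lowest in the band that was largest in old.

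For the oxygen response, 0 of 6 comparable genes of 20 passed the limit in either direction, beside 3.09% higher and 5.09% lower among all genes. *Ldha*, lactate dehydrogenase, was at 617, 426 and 743 CPM, *Pgk1*, a glycolytic kinase, at 46.5, 48.0 and 69.6 CPM, and *Vhl*, which directs HIF proteins to degradation, at 10.5, 11.6 and 11.1 CPM. The median log2 ratio of the 6 was 0.10 and 0.22. In the TGF-beta list, 1 of 4 comparable genes of 20 was higher in old, beside 3.09% of all genes. This was *Acvrl1*, a receptor of endothelial TGF-beta signalling, at 2.84, 4.70 and 19.1 CPM, with equal-band ratios of 1.59 and 1.07. *Acvrl1* also reached 10 CPM in old only, so it could not have been called lower. The signal transducer *Smad2* was at 21.3, 21.5 and 20.9 CPM. In the HGF list, 0 of 3 comparable genes of 10 passed, beside the same shares of all genes. The HGF receptor *Met* was at 0.198, 1.58 and 0.1 CPM. Among 7 genes linked to *Egfl7*, 1 of 2 comparable genes was lower in old, beside 5.09% of all genes. This was *Notch1*, at 11.2, 13 and 7.19 CPM, with equal-band ratios of −0.90 and −0.86. *Notch1* reached 10 CPM in control and young only, so it could not have been called higher.

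**Figure D5:**
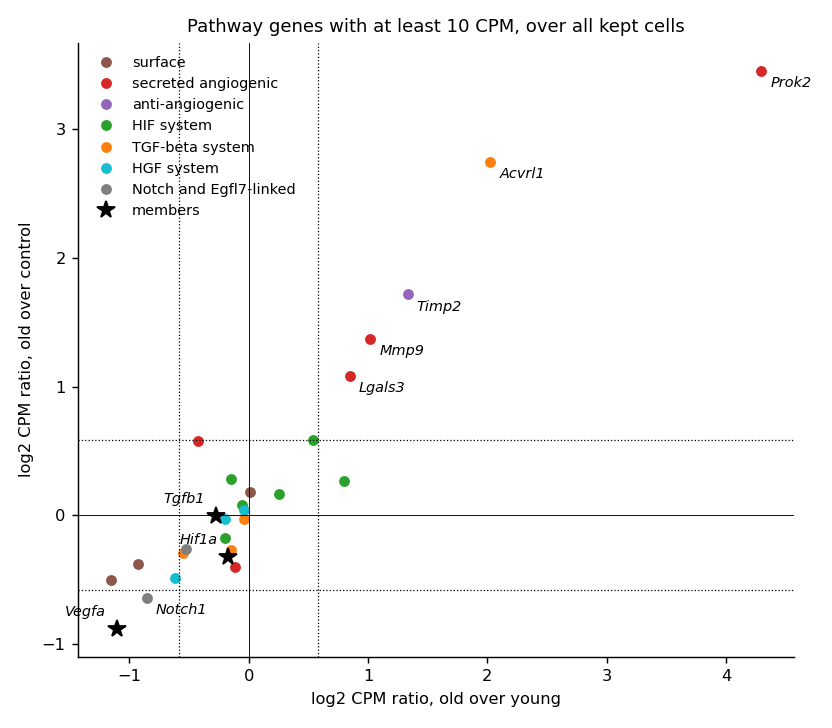
Log2 CPM ratios of old over young (horizontal) and old over control (vertical) for pathway genes that reached 10 CPM, coloured by list, and for the members *Vegfa*, *Tgfb1* and *Hif1a* (stars); dotted lines are at 1.5 times. *Vegfa* and *Notch1* lay past the limit below 0 and *Prok2*, *Acvrl1*, *Timp2*, *Mmp9* and *Lgals3* past it above 0. Against control with bands weighted equally, *Mmp9* was at −0.29, and *Lgals3* and *Timp2* were higher by less than 1.5 times.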

How the data were processed

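Single-cell libraries of CD133+ bone marrow cells were deposited by the authors as matrices of UMI counts per gene and cell. Per the labels, they were made with Cell Ranger 2.1.0 and STAR on mm10 from a 3′ kit; how reads were assigned to strands and overlapping genes is not given in the sources used here. *Egfl7*, *Cdh5*, *Hif1a* and *Hgf* overlap other annotated genes, so their counts are uncertain to that extent. Counts were used as deposited. After the study's methods, cells were kept with at least 200 genes, at most 20% mitochondrial UMIs and a UMI total between the 5th and 95th percentiles (young and old together, control alone). Cells with at least 2 UMIs each of 3 markers of another cell type were set aside. No doublet caller was run. In an alternative, 293 young, 213 old and 35 control cells above both the Mpo and Retnlg+Mmp8 limits were left out. Those cells lay in the Retnlg+Mmp8 band, so this could not change any ratio of Mpo high to Mpo low cells. Within 20% of the Retnlg+Mmp8 limit lay 26.3% of young and 23.4% of old cells, so bands are ranges and not cell types.

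UMIs were summed per library and band and divided by total UMIs. With 1 library per group no test was made. Intervals were exact Poisson, Clopper-Pearson or conditional binomial (Python 3.11.15, scipy 1.17.1), and genes that reached 10 CPM in one of the 2 libraries or bands were called at 1.5 times. The ratio and its interval were checked on simulated Poisson counts, for genes at 10 CPM or more in control. That check held no variation between cells, animals or libraries, and it did not cover members under 10 CPM. Gene positions came from GENCODE M21, in which 27645 of 27998 gene identifiers were found. Promoter windows were found for 8 of the 10 genes, not *Cdh5* and *Pecam1*. Named genes were the 10 members, up to 6 genes of highest mean CPM in each list with those called against both libraries, and the 3 genes most like each member. The members and lists were chosen with earlier results of these data known. Alternatives were all cells, other percentiles, thinning, other limits and equal band weights.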

Additional observations from a re-analysis of the deposited data

Results flagged for a closer look

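A single cell outside the comparisons was picked out. Among the 984 young cells removed by the filters, 1 had UMIs of 3 or more of the 17 endothelial genes, a share of 0.102% (exact binomial interval 0.00257 to 0.565), against 0 of 1089 removed control cells, which allows up to 0.275%, and 0 of 916 removed old cells. A count of 1 is within what 0 in control allows, and the summed level of the 17 genes was 5.50 CPM in removed young cells and 5.46 CPM in removed control cells. The make-up of these sums differed. *Flt1* gave 11 UMIs in removed young and 35 in removed control cells, and *Plvap* gave 7 and 0.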

How the results depend on the processing

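No paired analysis was possible because each group was a single library, and for the same reason no library could be left out. *Vegfa* stayed lower in old under every alternative run, with log2 ratios from −1.20 to −0.82 against young and from −0.88 to −0.55 against control. The count of 1 member lower in old became 0 at a limit of 2 times, 0 when UMIs were divided by cells and not by depth (which adds 0.29 to the log2 ratio of each gene against young and 0.33 against control), and 2 at a minimum of 1 CPM, where *Vegfb* was added. *Pecam1*, under 10 CPM, ranged from −0.41 to 0.95 against young. A limit of 20 CPM left 1 member measurable, *Tgfb1*. After thinning to 3000 UMIs, 1 member stayed under 1 CPM in every library, since *Cdh5* in young passed that level. Between bands, 3 of the 4 members were still called after thinning, a single random draw in which *Hif1a* in old fell to 0.22. At 5 times and 1 CPM, 1 member passed. With all deposited cells, 1 young cell had 3 endothelial genes. With 2 genes required, 3 control, 3 young and 7 old cells did. Of the single values, 28 of old against a 3-month library moved beyond their counting interval and 96 did not. Between bands these numbers were 13 and 160. The 160 include values that could not move. These were the ratios with cells above both limits left out, and those of control with percentiles taken within each library. Depth limits *Kdr*, *Cdh5*, *Flt1*, *Vegfb* and *Hgf* most.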

Other observations

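A list of 11 surface molecules often used for endothelial progenitors was also read. *Ptprc*, the leukocyte antigen CD45, was at 79.5, 89.0 and 89.9 CPM in control, young and old, and the adhesion molecules *Vcam1* at 33.4, 52.5 and 23.6 CPM and *Icam2* at 16.7, 24.5 and 12.9 CPM. None of these 3, the comparable genes of the list, passed 1.5 times against both libraries, beside 3.09% higher and 5.09% lower among all genes. *Kit*, the stem cell factor receptor, was at 7.46, 13.4 and 2.75 CPM, which is 10.3 CPM in Mpo high cells of old against 18.4 in control and 27.6 in young. *Cd34* was at 0.354, 3.08 and 0.376 CPM, highest in young. The part of set-aside cells in that level was not tested.

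The genes most like each member were ranked by Pearson's r of log2(CPM + 1) over the 12 values of 3 libraries by 4 bands, among 5767 genes. For *Vegfa* they were *Stk26* (0.990), *Kit* (0.981) and *Dcaf7* (0.978), for *Tgfb1* *Rpa2* (0.997), *Ndufs8* (0.994) and *Fen1* (0.994), and for *Hif1a* *Smndc1* (0.970), *Mydgf* (0.965) and *2610318N02Rik* (0.965). Added after the values were seen, they were *Pdk1* (0.990), *Tmem258* (0.987) and *Gtf2h4* (0.986) for *Flt1*. These are descriptions over values that share libraries and depth.

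In cells removed by the filters, most of them at the extremes of UMI number, *Vegfa* was at 12 CPM in control (10.2 to 14.0), 10.6 CPM in young (8.24 to 13.3) and 7.70 CPM in old (6.49 to 9.08). *Vegfb* there was at 1.46, 5.65 and 0.813 CPM.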
